A study of Danio rerio with 3 samples.

Results

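The 10 genes described here mark the pigment cells of zebrafish. They are *mitfa*, *pmela*, *dct*, *tyrp1b*, *tyr*, *gch2*, *aox5*, *xdh*, *pnp4a* and *ltk*, found by their symbols among the 32521 features of the deposited matrices. All 10 had counts in all 3 libraries. Zebrafish were injected at the single-cell stage with haCRs (highly active guides) against *sema4ab* (gSema4ab) or with a control guide (gControl), so that gSema4ab larvae are somatic mutants and not a stable line. All larvae received a spinal cord lesion at 3 days post-fertilization. Trunk tissue on both sides of the lesion, not the spinal cord alone, was cut out at 4 days post-fertilization from 50 larvae per sample. Viable cells were sorted, and the series' design text also names GFP-positive cells, so that the shares of cell types below are shares after a sort. gSema4ab was measured in 2 technical repeats (gSema4abR1 and gSema4abR2) and gControl in 1 library. Each condition was therefore taken as 1 pool without biological replicates, no test was run, and all intervals are 95% intervals that cover counting error only.

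Pigment cells of zebrafish arise from the neural crest and come in 3 main types. Melanophores make black melanin in melanosomes, xanthophores are yellow from pteridines and carotenoids, and iridophores reflect light from crystals of purines. *mitfa* encodes the transcription factor that drives melanophore fate. Pmela forms the fibrils of the melanosome on which melanin is laid down, while Tyr, Tyrp1b and Dct are enzymes of melanin synthesis. Gch2 catalyzes the first step of pteridine synthesis, and Aox5 and Xdh are related oxidases that act on pteridines and purines. Pnp4a is a purine nucleoside phosphorylase of iridophores, and Ltk is a receptor tyrosine kinase that iridophores need to form.

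After filtering and removal of likely doublets, 12079 cells of gSema4abR1, 11940 of gSema4abR2 and 12247 of gControl were kept, with medians of 6477, 6738 and 7199 UMIs per cell. A UMI marks 1 captured mRNA molecule, and levels are given as UMIs of a gene per 1000000 UMIs of the same cells (CPM). Libraries shared 43 (gSema4abR1 and gSema4abR2), 34 (gSema4abR1 and gControl) and 45 (gSema4abR2 and gControl) barcodes among the kept cells. *sema4ab* had 29.1 CPM in gSema4abR1 and 30.6 CPM in gSema4abR2, against 51.2 CPM in gControl. Over all kept cells, 1 of the 10 genes (*dct*) was at least 1.5-fold lower than gControl in both repeats, beside 16.4% of 25058 genes, and 1 (*gch2*) was higher, beside 3.43%.

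Cells were clustered without the 10 genes and clusters were named from other markers, so that the levels below were not used to define the classes. Of 46 clusters, clusters 15 and 40 were xanthophore-like and held 383 cells in gSema4abR1 and 358 in gSema4abR2, against 262 in gControl. A cluster of 44 cells carried melanophore and iridophore markers together and was divided further. This gave 23 melanophore-like cells (7 in gSema4abR1, 6 in gSema4abR2 and 10 in gControl) and 14 iridophore-like cells (10 in gSema4abR1, 2 in gSema4abR2 and 2 in gControl). The remaining 7 cells, all from gControl, stayed unnamed and are called sub-cluster 43c. The division depended on the number of variable genes. With 1000 in place of 300, an alternative chosen after seeing the data, it gave 24 melanophore-like cells, no iridophore-like class and unnamed groups of 11 and 9 cells. The xanthophore-like cells had few UMIs, with medians of 1068 UMIs in gSema4abR1, 1128 in gSema4abR2 and 1056 in gControl. In them *sema4ab* itself had 116 CPM in gSema4abR1 and 167 CPM in gSema4abR2, against 241 CPM in gControl. Most of its UMIs lay in cluster 40, with 317 CPM in gSema4abR1 and 407 CPM in gSema4abR2, against 552 CPM in gControl. Cluster 15 had 19.3, 29.4 and 56.0 CPM in the same order, from 9, 12 and 16 UMIs. Melanophore-like cells held 4, 2 and 2 *sema4ab* UMIs in gSema4abR1, gSema4abR2 and gControl, and iridophore-like cells 2, 0 and 1.

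In melanophore-like cells *tyrp1b* had the most UMIs of the 10 genes in every library. It had 4611 CPM in gSema4abR1 and 3177 CPM in gSema4abR2, against 4204 CPM in gControl. The level of gControl lay between those of the repeats, which differed from each other by -0.54 on the log2 scale (gSema4abR2 over gSema4abR1, interval -0.73 to -0.34). *pmela* had 1959 and 1800 CPM in gSema4abR1 and gSema4abR2, against 2083 CPM in gControl, and these intervals overlapped. *tyr*, the enzyme of the first step, had 112 and 194 CPM in gSema4abR1 and gSema4abR2, against 202 CPM in gControl, from only 12, 23 and 36 UMIs.

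*dct* was lower in both repeats, with 506 CPM in gSema4abR1 and 499 CPM in gSema4abR2, against 918 CPM in gControl. The log2 ratio was -0.86, and the intervals of the repeats spanned -1.34 to -0.41. Without the cell with the most *dct* UMIs in each library, which held 46.3% to 72.9% of them, the ratio was -1.54. The value rested on UMIs from 3 of 7 and 3 of 6 cells in gSema4abR1 and gSema4abR2, and from 6 of 10 cells in gControl. Other markers moved in these cells as well. Melanophore markers summed to 4489 CPM in gSema4abR1 and 5349 CPM in gSema4abR2, against 6673 CPM in gControl, and xanthophore markers to 947 CPM in gSema4abR1 and 1158 CPM in gSema4abR2, against 644 CPM in gControl. A cell of gSema4abR1 held 11 xanthophore and 2 melanophore marker UMIs, and a cell of gSema4abR2 held 48 and 18. Neither had a UMI of *pmela*, *dct*, *tyrp1b* or *tyr*. Every other melanophore-like cell, in all libraries, had more melanophore than xanthophore marker UMIs. The part of these markers and cells in the ratio of *dct* was not tested. *dct* was the only one of 6 genes with enough UMIs that was at least 1.5-fold lower in both repeats, beside 8.94% of 2450 genes in these cells. In the 24 melanophore-like cells made with 1000 variable genes its ratio was -0.70, and that of *pmela* was 0.02 in place of -0.15. None of the 6 was at least 1.5-fold higher, beside 11.5% of genes.

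*mitfa* had 581 CPM in gSema4abR1 and 397 CPM in gSema4abR2, against 565 CPM in gControl, so that the libraries did not separate by condition. All 4 melanin genes (*pmela*, *dct*, *tyrp1b* and *tyr*) were found in 11 of the 23 cells, and none of them in 4. The cell with the most *tyrp1b* UMIs held 43.9% of the gene's UMIs in gSema4abR1, 54.5% in gSema4abR2 and 26.1% in gControl. *gch2*, known for its role in xanthophores, was found in 15 of the 23 cells, with 1228 CPM in gSema4abR1 and 794 CPM in gSema4abR2, against 901 CPM in gControl. The levels of the repeats lay on either side of that of gControl, but gSema4abR1 lay above it only with a single cell included. This cell had 42 of the 131 *gch2* UMIs of gSema4abR1, among only 2755 UMIs of its own, and none of the melanin genes. It held more xanthophore than melanophore marker UMIs. *xdh* had no UMI in melanophore-like cells of any library.

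**Figure D1:**
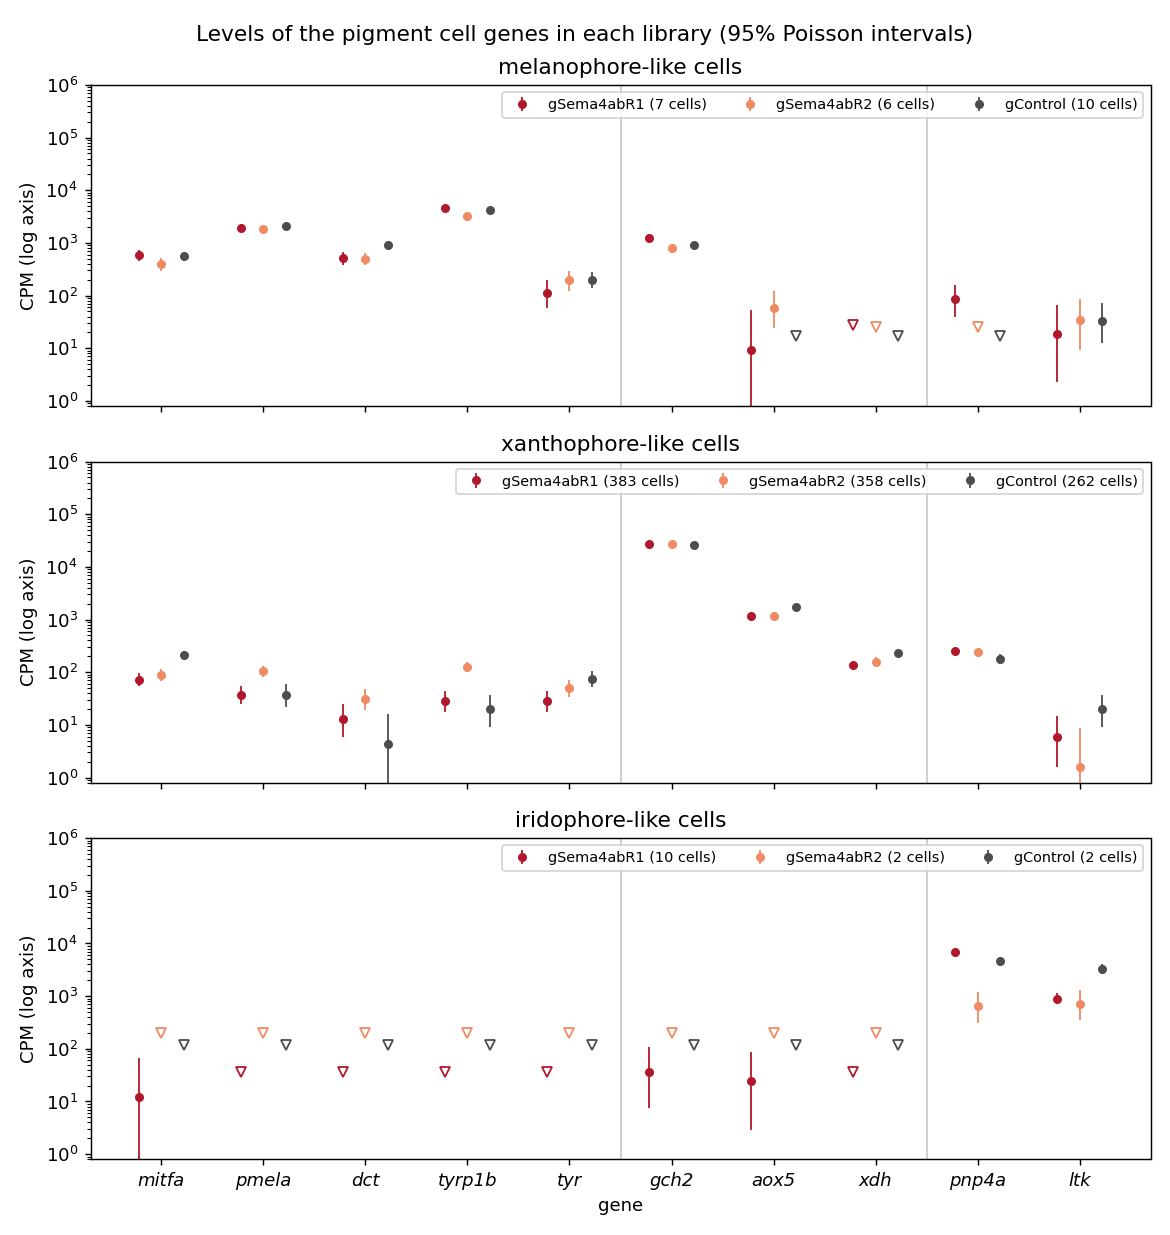
Levels of the 10 genes in the 3 pigment classes, in CPM on a log axis. Points are single libraries with 95% Poisson intervals, and open triangles mark the limit of 3 counts where no UMI was found. *gch2* lies at 25934 CPM or more in xanthophore-like cells of all 3 libraries.

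In xanthophore-like cells *gch2* had 27388 CPM in gSema4abR1 and 27160 CPM in gSema4abR2, against 25934 CPM in gControl. The log2 ratio was 0.07, with intervals of the repeats from 0.03 to 0.11. A *gch2* UMI was found in 98.2% of cells in gSema4abR1, 99.2% in gSema4abR2 and 98.5% in gControl. In red blood cell-like cells, which should lack the gene and had medians of 5225, 5973 and 4198 UMIs, the shares were 4.28%, 4.69% and 4.26%.

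*aox5* and *xdh* were lower in both repeats. *aox5* had 1145 CPM in gSema4abR1 and 1172 CPM in gSema4abR2, against 1707 CPM in gControl, with a log2 ratio of -0.56 and intervals of the repeats from -0.72 to -0.40. Both repeats lay below gControl and differed from each other by less than their counting error. *xdh* had 136 CPM in gSema4abR1 and 159 CPM in gSema4abR2, against 232 CPM in gControl, with a log2 ratio of -0.65 (-1.19 to -0.14). *mitfa* had 72.4 CPM in gSema4abR1 and 88.8 CPM in gSema4abR2, against 210 CPM in gControl. Its log2 ratio of -1.38 (-2.06 to -0.76) was the only one among 9 genes with enough UMIs that was at least 1.5-fold lower in both repeats, beside 17.8% of 7349 genes in these cells. *dct* was the only one at least 1.5-fold higher, beside 7.76% of genes, and came from few cells as described below.

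The median log2 ratio over the 7349 genes of xanthophore-like cells was -0.16. With TMM factors this median was 0.02, *gch2* had a log2 ratio of 0.25, *aox5* of -0.38, *xdh* of -0.47 and *mitfa* of -1.20. The counts of genes at least 1.5-fold higher and lower were then 872 and 820, where scaling by totals gave 570 and 1306. A set of 13 xanthophore markers was also summed, where 14 were counted in naming cluster 15 and 15 in naming cluster 40. This set came to 14907 CPM in gSema4abR1 and 13885 CPM in gSema4abR2, against 19703 CPM in gControl. Iridophore markers summed to 1483, 1546 and 2632 CPM in the same order, and melanophore markers to 2014, 2233 and 2544 CPM. The part of a shared fall of pigment markers in the ratios of *aox5*, *xdh* and *mitfa* was not tested. Markers of red blood cells summed to 4739 CPM in gSema4abR1 and 10412 CPM in gSema4abR2, against 5106 CPM in gControl, and their part in these ratios was not tested. The 12 markers of macrophages and microglia summed to 708 CPM in gSema4abR1 and 765 CPM in gSema4abR2, against 1083 CPM in gControl. Most of this was *csf1ra*, a receptor of xanthophores as well, with 650 CPM in gSema4abR1 and 700 CPM in gSema4abR2, against 995 CPM in gControl. The 11 others summed to 40 UMIs (57.9 CPM) in gSema4abR1 and 42 UMIs (65.5 CPM) in gSema4abR2, against 40 UMIs (87.7 CPM) in gControl. Of these 11, 6 in each repeat, against 3 in gControl, had no UMI, and *marco* was at 0 in both repeats. The part of macrophage RNA in the ratios of xanthophore-like cells was not tested.

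Values were also taken in each of the 2 xanthophore-like clusters. Cluster 15 held 883 cells with a median of 991 UMIs, and cluster 40 held 120 cells with a median of 5102. *mitfa* in cluster 15 had 53.6 CPM in gSema4abR1 and 68.6 CPM in gSema4abR2, against 231 CPM in gControl, with a log2 ratio of -1.90 (-2.83 to -1.09). Among cells of cluster 15, *mitfa* was found in 5.88% for gSema4abR1 and 7.23% for gSema4abR2, against 21.8% for gControl. At an equal depth of 500 UMIs in every cell, the share was 2.65% in gSema4abR1 and 1.57% in gSema4abR2, against 12.9% in gControl. Red blood cell-like cells, at the depths given above, had a *mitfa* UMI in at most 0.123% of cells in any library. The macrophage markers also moved with *mitfa* in cluster 15, with 381 CPM in gSema4abR1 and 365 CPM in gSema4abR2, against 818 CPM in gControl, and without *csf1ra* with 29 UMIs (62.1 CPM) and 22 UMIs (53.9 CPM), against 38 UMIs (133 CPM). In macrophage/microglia-like cells themselves these 11 markers summed to at least 3561 CPM in every library and *mitfa* had at most 19.0 CPM. The part of macrophage RNA in the *mitfa* ratio of cluster 15 was not tested. In cluster 40 *mitfa* had 112 CPM in gSema4abR1 and 124 CPM in gSema4abR2, against 176 CPM in gControl, and the intervals of the log2 ratio, -1.48 to 0.28, included 0. *xdh* was lower in cluster 15, with a log2 ratio of -0.99 (-1.62 to -0.41), and had a ratio of -0.23 (-1.12 to 0.58) in cluster 40. *aox5* had ratios of -0.57 in cluster 15 and -0.52 in cluster 40. Whether the clusters differ in these ratios was not tested. In cluster 15, 3 of 9 genes (*mitfa*, *tyr* and *xdh*) were at least 1.5-fold lower in both repeats, beside 20.7% of 4617 genes, and 1 (*dct*) was at least 1.5-fold higher, beside 6.74%. *tyr* rested there on 10 and 11 UMIs in gSema4abR1 and gSema4abR2, against 13 in gControl. In cluster 40 none of 7 genes passed in either direction, beside 12.9% of 4490 genes lower and 13.8% higher.

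**Figure D2:**
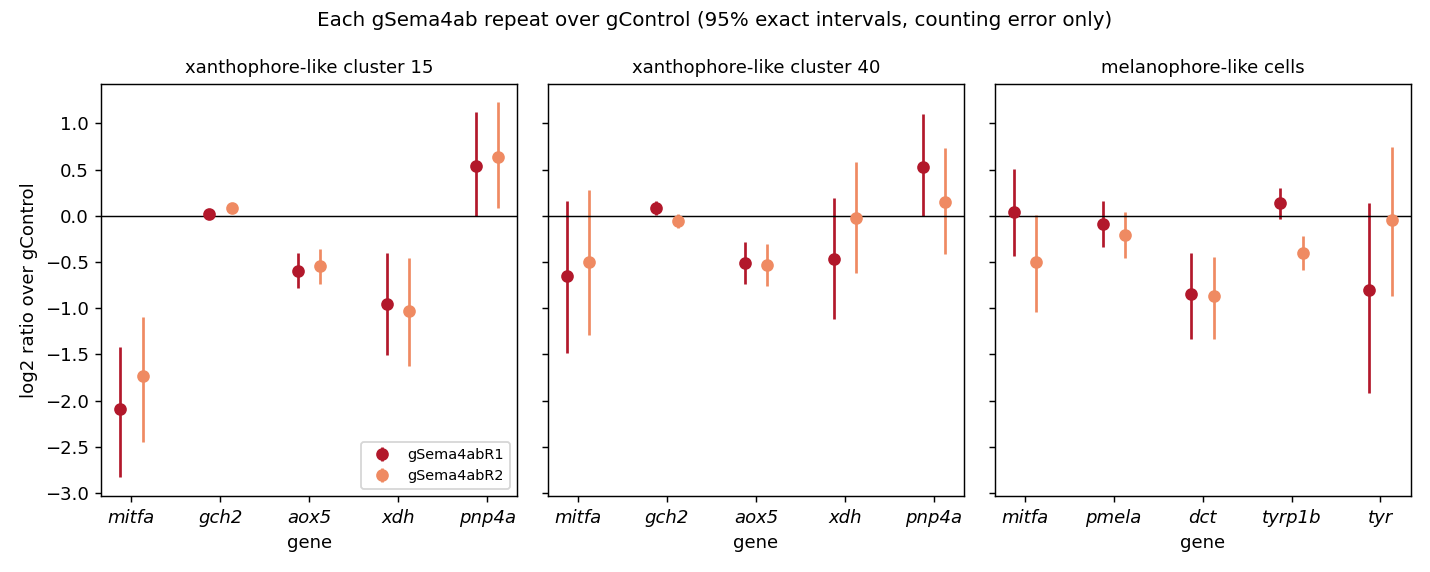
Log2 ratio of each gSema4ab repeat over gControl for 5 genes per panel, with 95% exact intervals of counting error. The panels of both xanthophore-like clusters show *mitfa*, *gch2*, *aox5*, *xdh* and *pnp4a*. The panel of melanophore-like cells shows *mitfa*, *pmela*, *dct*, *tyrp1b* and *tyr*. In cluster 15 *mitfa* lies lowest, with a mean ratio of -1.90, and *gch2* lies near 0.

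*pnp4a*, a gene of iridophores, was also found in xanthophore-like cells. It had 256 CPM in gSema4abR1 and 240 CPM in gSema4abR2, against 182 CPM in gControl, with a log2 ratio of 0.44 (0.01 to 0.89). *tyr* had 29.0 and 49.9 CPM in gSema4abR1 and gSema4abR2, against 74.5 CPM in gControl, and the intervals, -2.24 to 0.16, included 0. *tyrp1b* and *dct* came from 2 cells in gSema4abR1 and 4 cells in gSema4abR2, against 1 cell in gControl, and all 7 of these cells held both genes and *pmela*. Of the 7 cells, 5 had a *gch2* UMI and none had an *aox5* UMI. *ltk* had 4 UMIs in gSema4abR1 and 1 UMI in gSema4abR2, against 9 in gControl.

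Iridophore-like cells were few, and 10 of the 14 came from gSema4abR1. *ltk* was found in all 14 cells and *pnp4a* in 11. *pnp4a* had 6969 CPM in gSema4abR1 and 653 CPM in gSema4abR2, against 4605 CPM in gControl. The repeats differed by more than either differed from gControl, so that no direction can be given. *ltk* had 897 CPM in gSema4abR1 and 719 CPM in gSema4abR2, against 3335 CPM in gControl. The log2 ratio was -2.02 (-3.27 to -1.30), but gControl and gSema4abR2 had 2 cells each. It was the only one of the 2 genes with enough UMIs that was at least 1.5-fold lower in both repeats, beside 17.1% of 703 genes, and neither was higher, beside 15.1%. *pmela*, *dct*, *tyrp1b*, *tyr* and *xdh* had no UMI in these cells, and 1 cell had a *mitfa* UMI.

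**Figure D3:**
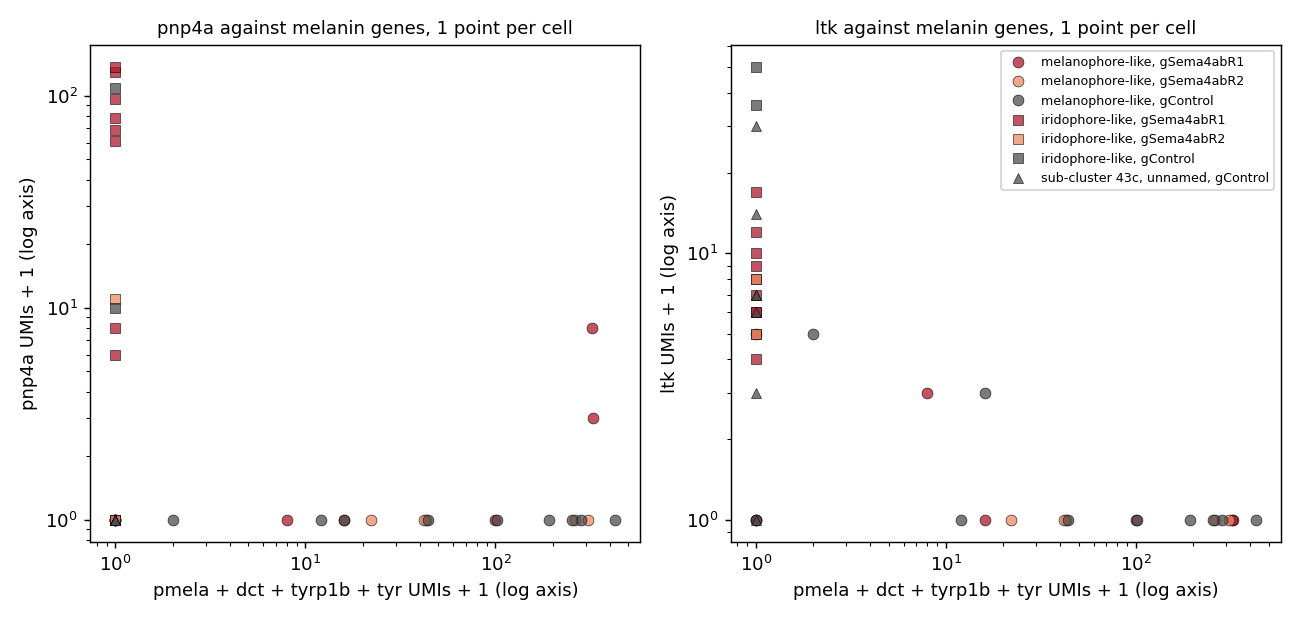
UMIs of *pnp4a* and *ltk* against the summed UMIs of *pmela*, *dct*, *tyrp1b* and *tyr* in the 44 cells of the divided cluster, after 1 was added, on log axes. Each point is a cell, and points can overlap. The 14 iridophore-like cells and the 7 cells of sub-cluster 43c all lie at 0 melanin UMIs.

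The 7 cells of sub-cluster 43c held 34 *mitfa* UMIs (779 CPM) and 61 *ltk* UMIs (1398 CPM), and no UMI of the other 8 genes. They were led by *tmeff2b*, *trpm1b* and *pax3a*, a transcription factor of the early neural crest. They passed 7 melanophore and 5 iridophore markers and were left unnamed because these counts were too close. No cell of either gSema4ab repeat was in this sub-cluster. With 1000 variable genes the unnamed group of 11 held 3 cells of gSema4abR1, 2 of gSema4abR2 and 6 of gControl. The unnamed group of 9 held 8 cells of gSema4abR1 and 1 of gControl. Where the 7 cells of sub-cluster 43c fell in that division was not traced.

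The cells that held most UMIs of a gene were not always pigment cells. Over the 3 libraries, 89.8% of *tyrp1b* UMIs and 76.9% of *dct* UMIs were in melanophore-like cells, and 87.3% of *gch2* and 86.7% of *aox5* UMIs were in xanthophore-like cells. *tyr* was divided between xanthophore-like cells (44.6%) and melanophore-like cells (36.8%). *pnp4a* had 47.0% of its UMIs in iridophore-like and 27.7% in xanthophore-like cells, but the order turned between libraries. Iridophore-like cells held 66.3% in gSema4abR1 and 3.33% in gSema4abR2, against 35.7% in gControl, and xanthophore-like cells held 20.4% in gSema4abR1 and 51.3% in gSema4abR2, against 25.5% in gControl. *xdh* had 66.1% in xanthophore-like cells, and its highest level outside pigment cells was 17.4 CPM in ionocyte-like cluster 41. That value rested mostly on gSema4abR1, with 24 UMIs (40.3 CPM), beside 11 UMIs (8.62 CPM) in gSema4abR2 and none among the 10 cells of gControl. Cluster 41 took its name from only 3 ionocyte markers. Its leading genes included *lgals2b*, *fabp6* and *cdh17* beside the ionocyte marker *atp1a1a.4*.

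Of *ltk* UMIs, 82.4% were in the 9213 fibroblast-like cells. Its level there, 80.4 CPM in gSema4abR1 and 78.3 CPM in gSema4abR2, against 108.8 CPM in gControl, was below that in iridophore-like cells of every library. The fibroblast-like clusters did not move one way. In cluster 2 *ltk* had 218 CPM in gSema4abR1 and 201 CPM in gSema4abR2, against 340 CPM in gControl. The gSema4ab mean stood -0.70 from gControl on the log2 scale (-0.86 to -0.54), both repeats were at least 1.5-fold lower, and so were 17.2% of 14263 genes in this cluster. With TMM factors the ratio was -0.45. In cluster 3 it had 23.5 CPM in gSema4abR1 and 30.2 CPM in gSema4abR2, against 81.5 CPM in gControl, and was the only one of 3 genes at least 1.5-fold lower in both repeats, beside 13.1% of 14155 genes. In cluster 23 it was higher, with 99.5 CPM in gSema4abR1 and 108 CPM in gSema4abR2, against 51.5 CPM in gControl (interval of the log2 ratio 0.61 to 1.41). In cluster 12 it had 84.4 CPM in gSema4abR1 and 67.1 CPM in gSema4abR2, against 56.4 CPM in gControl, with intervals of the log2 ratio, -0.05 to 0.87, that included 0. Neither of 2 genes passed 1.5-fold in cluster 12, beside 5.68% of 12615 genes higher and 16% lower. Both of 2 genes, *ltk* and *gch2*, were at least 1.5-fold higher in cluster 23, beside 5.83% of 11568 genes, and in cluster 3 *gch2* and *aox5* were, beside 4.72%. *gch2* was the other gene with enough UMIs in cluster 2 and was at least 1.5-fold higher in both repeats, as were 4.14% of genes. It had 186 UMIs (34.6 CPM) in gSema4abR1 and 177 UMIs (30.9 CPM) in gSema4abR2, against 57 UMIs in gControl, with a log2 ratio of 1.57. In red blood cell-like cells *gch2* had 7.66 CPM in gSema4abR1 and 16.1 CPM in gSema4abR2, against 12.9 CPM in gControl. Over 42 clusters outside pigment cells, with the libraries summed, its median was 16.6 CPM. The values ran from 1.88 CPM to 94.5 CPM, the highest in unnamed cluster 31. The *gch2* levels of cluster 2 lay within this range, and no expression above background is read from them. *gch2* in cluster 12 went the other way, with 16 UMIs in gSema4abR1 and 112 UMIs in gSema4abR2, against 174 UMIs in gControl, and in cluster 23 it had 67, 12 and 7 UMIs. *aox5* in cluster 3 had 8 UMIs in gSema4abR1 and 7 UMIs in gSema4abR2, against 5 in gControl. Over all fibroblast-like cells *mitfa* was the only one of 8 genes at least 1.5-fold lower in both repeats, from 16, 11 and 28 UMIs, beside 16.7% of 19497 genes, and none was higher, beside 4.12%. These *mitfa* levels were 0.70 CPM in gSema4abR1, 0.46 CPM in gSema4abR2 and 1.20 CPM in gControl. They lay near background, with a median of 0.74 CPM over clusters outside pigment cells and 0.44 CPM in red blood cell-like cells of gSema4abR2.

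*mitfa* had 57.9% of its UMIs in macrophage/microglia-like cells, a lineage in which Mitf is known from mammals to act in osteoclasts. Its level there was low, with 17.7 CPM in gSema4abR1 and 14.5 CPM in gSema4abR2, against 19.0 CPM in gControl. In red blood cell-like cells *mitfa* had at most 0.44 CPM in any library. In macrophage/microglia-like cells 2 of 6 genes (*gch2* and *aox5*) were at least 1.5-fold higher in both repeats, beside 3.93% of 17715 genes, and none lower, beside 13.1%. *gch2* had 242 UMIs in gSema4abR1 and 249 in gSema4abR2, against 122 in gControl. These levels were at or below the highest of red blood cell-like cells of any library, and no expression is read from them. Within gSema4abR1 alone the level was above that of red blood cell-like cells. *aox5* had 16 UMIs (0.86 CPM) in gSema4abR1 and 23 (1.38 CPM) in gSema4abR2, against 5 (0.27 CPM) in gControl. Red blood cell-like cells had 0.24, 1.07 and 0.62 CPM of *aox5* in the same order. *pmela* had 16.9% of its UMIs in neuron-like cluster 17, at 63.7 CPM in gSema4abR1 and 64.7 CPM in gSema4abR2, against 63.5 CPM in gControl. This cluster was led by *gap43*, *sox11b* and *stmn4*, and the levels differed by less than their counting error. Neither of 2 genes with enough UMIs passed 1.5-fold there, beside 6.51% of 11127 genes higher and 10.3% lower. In another neuron-like cluster, cluster 9, *pmela* had 9.54 CPM in gSema4abR1 and 13.5 CPM in gSema4abR2, against 1.67 CPM in gControl, from 27, 38 and 5 UMIs. It was the only one of 3 genes with enough UMIs there that was at least 1.5-fold higher in both repeats, beside 7.13% of 14692 genes. *pnp4a* outside pigment cells was highest in smooth muscle/pericyte-like cluster 16, with 31.5 CPM in gSema4abR1 and 33.4 CPM in gSema4abR2, against 27.9 CPM in gControl. None of 3 genes passed 1.5-fold there, beside 5.51% of 11451 genes higher and 11.1% lower.

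**Figure D4:**
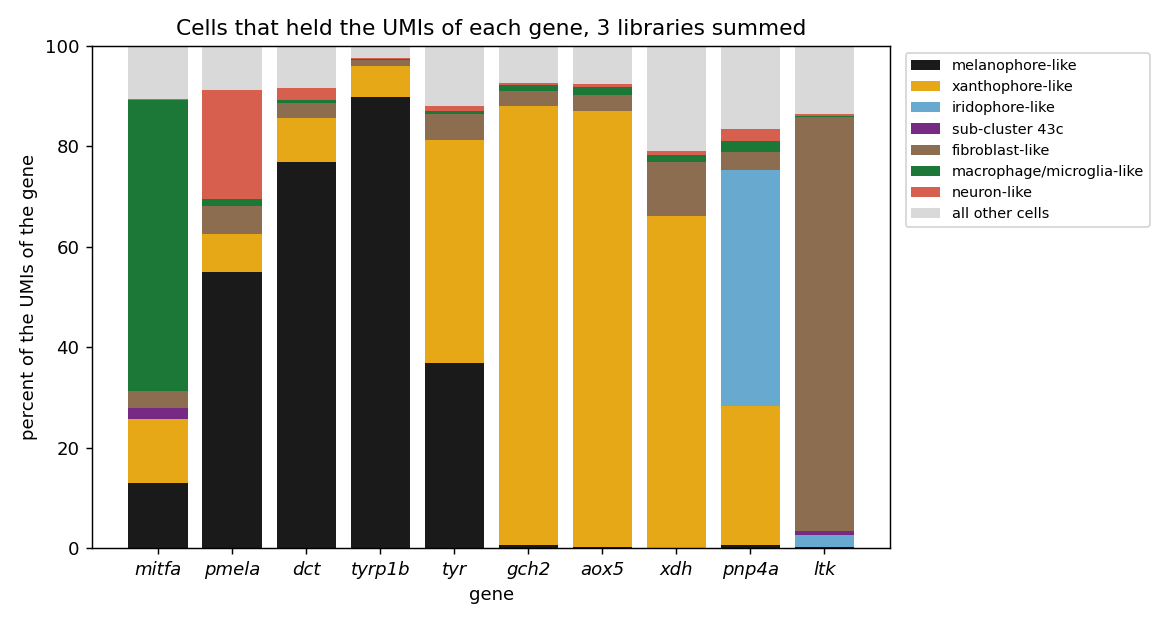
Percent of the UMIs of each gene held by each class, with the 3 libraries summed. Bars for *ltk* and *mitfa* are filled mostly by fibroblast-like (82.4%) and macrophage/microglia-like cells (57.9%).

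Levels were also taken over all barcodes of a library. Xanthophore-like cells were 3.17% of cells in gSema4abR1 and 3.00% in gSema4abR2, against 2.14% in gControl. *gch2* over all barcodes had 163 CPM in gSema4abR1 and 162 CPM in gSema4abR2, against 98.9 CPM in gControl, while *aox5* had a log2 ratio of 0.16. Over all barcodes *aox5* had 992 UMIs in gSema4abR1 and 988 UMIs in gSema4abR2, against 970 UMIs in gControl, and its level was lower within xanthophore-like cells.

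Other genes of the pigment pathways were counted from lists, and those named as past the limit were picked after their values were seen. Of 7 pteridine genes with enough UMIs in xanthophore-like cells, 1 was at least 1.5-fold lower in both repeats and none higher. This was *pts*, the next enzyme of pteridine synthesis after Gch2, with 537 CPM in gSema4abR1 and 517 CPM in gSema4abR2, against 903 CPM in gControl. A list of transcription factors of the neural crest and pigment cells also held *crestin*, a neural crest marker that is not a transcription factor. Of 10 genes of this list, 4 were lower (*sox5*, *tfap2e*, *mitfb* and *pax7a*) and 2 higher (*tfap2a* and *tfap2c*). Over all genes of these cells 17.8% were lower and 7.76% higher, and the median of this list was -0.43, beside -0.16 for all genes. *pax7a*, a factor of xanthophore fate, had 749 CPM in gSema4abR1 and 784 CPM in gSema4abR2, against 1751 CPM in gControl. Of 14 purine genes in xanthophore-like cells, 3 were lower (*pfas*, *prps1b* and *hprt1*) and none higher, a share close to the 17.8% of all genes. Both receptors with enough UMIs there, *csf1ra* and *ednrba*, missed the 1.5-fold limit in at least 1 repeat. In melanophore-like cells, where 8.94% of all genes were lower and 11.5% higher, both tested receptors were lower. *kita*, the receptor that melanophores need to migrate and survive, had 272 CPM in gSema4abR1 and 304 CPM in gSema4abR2, against 565 CPM in gControl. *ednrba* had 131 and 135 CPM in gSema4abR1 and gSema4abR2, against 241 CPM in gControl. None of 9 further melanin and melanosome genes passed the limit in these cells in either direction. Of 9 genes of the transcription factor list there, 2 were lower (the neural crest marker *crestin* and *sox5*) and 1 higher. This was *pax7b*, with 5 UMIs in gSema4abR1 and 36 UMIs in gSema4abR2, against none in gControl. Of 7 purine genes there 3 were lower and none higher, and of 3 pteridine genes 1 was lower (*mycbp2*). The only gene tested of the carotenoid and fat list, *bco1*, was lower. Of 10 purine genes in iridophore-like cells, 3 were higher (*adsl*, *ppat* and *paics*) and none lower, beside 15.1% of all genes higher and 17.1% lower, with 2 cells each in gSema4abR2 and gControl. *paics*, an enzyme of purine synthesis, had 2303 CPM in gSema4abR1 and 2286 CPM in gSema4abR2, against 1112 CPM in gControl. Of 7 genes of the transcription factor list there, 3 were lower (*sox5*, *alx4a* and *alx4b*). Of 4 melanin and melanosome genes 1 was lower (*trpm1b*), and the only pteridine gene tested, *qdpra*, was higher. The only receptor and the only ligand tested in these cells did not pass. In xanthophore-like cells none of 7 melanin and melanosome genes and none of 3 genes of the carotenoid and fat list passed, and of 2 ligands *kitlga* was lower. Several of these genes, such as *pts*, *pax7a*, *kita* and *ednrba*, were also among the markers that named the classes.

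The genes whose levels across the 46 clusters were most like those of each gene are given as descriptions. By Pearson correlation of log2 levels after 10 CPM was added, *tyr* was most like *tfap2e* (0.99) and *aox5* most like *tmem130* (0.99). *dct* and *tyrp1b* were both most like *zgc:91968* (0.99 each), *mitfa* was most like *tspan10* (0.95) and *pmela* most like *slc45a2* (0.92). *gch2* was most like *CABZ01021592.1* (0.97), *xdh* most like *si:dkey-73n8.3* (0.96) and *pnp4a* most like *tfap2e* (0.95). *ltk* reached 0.755 at most, with *slc22a2*. The clusters share libraries and differ in depth. The divided cluster entered whole, so that melanophore-like and iridophore-like cells were counted together. After division *pnp4a* had 701 UMIs in iridophore-like and 9 UMIs in melanophore-like cells. *tfap2e*, *zgc:91968*, *tspan10* and *slc45a2* were also among the melanophore markers that named the classes.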

How the data were processed

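The deposited values are counts, UMIs per gene and barcode, which the authors made with Cell Ranger 7.1.0 on GRCz11 (submitters' processing notes) without normalization. The limits of the study on cells were applied (at least 200 genes, 500 to 50000 UMIs, under 20% mitochondrial UMIs, at most 20 UMIs per gene). Likely doublets, ranked by Scrublet, were taken out at 0.8% per 1000 barcodes. This fixed share removed 1571 barcodes of gSema4abR1, 1526 of gSema4abR2 and 1594 of gControl. Scrublet's own threshold called only 324, 0 and 422, so that many removed barcodes were not called doublets by it. The study's further removal of cells by neuron, globin and collagen genes was not applied. Clusters were made with Seurat 5.3.0 (CCA integration, 30 dimensions, resolution 1) from 1994 of 2000 variable genes, since 6 were among the 10 genes. Clusters were named by at least 3 markers, in at least 10% of cells and at least 3-fold above other cells. A cluster still stayed unnamed where another class had more of its 10 leading genes or where markers of a pigment class were mixed in. The same held for a cluster with few UMIs and no leading gene of its class. Sub-clusters also stayed unnamed where the marker count of the best list was not well above that of another pigment class. The divided cluster was split by Ward clustering of 300 variable genes. Log2 ratios set the mean CPM of both repeats against gControl after 0.5 UMIs were added. Intervals were exact Poisson for levels, exact binomial for shares and, for each repeat against gControl, exact conditional binomial; a range spans both repeats. Genes needed at least 20 UMIs to be counted as past 1.5-fold. TMM factors came from edgeR 4.0.16. Genes, lists and naming limits were chosen with earlier results of these data known. Named were all 10 genes, genes of the lists, and for each gene the one with the most similar pattern. No p-values were computed.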

Additional observations from a re-analysis of the deposited data

Results flagged for a closer look

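*dct* had a log2 ratio of -0.86 in melanophore-like cells and of 2.06 in xanthophore-like cells, and both repeats lay on the same side in each class. The intervals of the repeats in xanthophore-like cells, -0.70 to 5.97, included 0. *pmela* had a log2 ratio of -0.15 in melanophore-like cells and of 0.90 in xanthophore-like cells, but in xanthophore-like cells the ratio was 0.00 in gSema4abR1 and 1.46 in gSema4abR2, with intervals from -0.92 to 2.35. The differences between the classes were not tested. In xanthophore-like cluster 15, melanin genes summed to 56 UMIs in gSema4abR1 and 170 UMIs in gSema4abR2, against 34 UMIs in gControl. Of these, 39 UMIs were in 2 cells, 152 in 4 cells and 16 in 1 cell that held at least 5 such UMIs.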

How the results depend on the processing

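No paired analysis was possible because gControl is 1 library. With doublets kept, *gch2* had a ratio of 0.12 in xanthophore-like cells. At resolution 0.5, which made no melanophore- or iridophore-like class, *gch2* had 0.38 and *aox5* -0.23. Over all barcodes, without classes, the ratios were -0.69 for *tyrp1b*, 0.71 for *gch2*, 0.16 for *aox5* (the opposite direction), 0.91 for *pnp4a* and -0.36 for *ltk*. There *pnp4a* had 6.50 CPM in gSema4abR1 and 2.41 CPM in gSema4abR2, against 2.37 CPM in gControl, with an interval from -0.19 to 1.63. In iridophore-like cells the mean of its repeats lay below gControl, so that its sign differed as well, and the repeats disagreed in both. TMM factors gave 0.25 for *gch2* and -0.38 for *aox5*. Alternatives chosen after seeing the data gave 0.017 for *gch2* in cluster 40 alone and, without the cell with the most UMIs of the gene in each library, -1.54 for *dct* and 1.89 for *pnp4a*. For *pnp4a* this left 1 cell of gSema4abR2 with no UMI of the gene and 1 cell of gControl with 9, so that no direction is read from it. In xanthophore-like cells, 570 genes were at least 1.5-fold higher in both repeats, 97 with at least 100 UMIs, 2265 with at least 1 UMI and 872 with TMM factors. The lower counts were 1306, 327, 4482 and 820 under the same settings. In melanophore-like cells the higher counts were 282, 25, 3927 and 173, and the lower counts 219, 20 and 2554 for the first 3 settings. The causes of these differences were not tested. The 23 melanophore-like and 14 iridophore-like cells limit what can be said of their genes. With doublets kept, 50 cells were melanophore-like and 16 iridophore-like.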
